A study of Mus musculus with 6 samples.

Results

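Ribosome assembly in the nucleolus was followed through 46 genes in mouse mammary organoids with intact or conditionally deleted Ezh2. The genes were taken by symbol from a list of known nucleolar factors. All 46 were found, each on 1 row, among the 21627 genes of the deposited table. Organoids had the genotype MIC/Wild-type (WT) or MIC/Conditional Ezh2 KO (KO), each with 3 libraries, from female FVB/N mice aged 8 to 12 weeks. In both, about 10000 mammary epithelial cells formed acini for 6 days and were then kept for 8 days in 2 µg/ml doxycycline. Doxycycline switched on the polyomavirus middle-T oncogene in both genotypes and, in the KO line only, deleted the conditional Ezh2 alleles. The promoter behind these switches, the deleted exons, and whether replicates were separate mice or cultures are not stated in the labels, so p-values measure the spread between libraries, which may be technical.

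Ribosomes are built in the nucleolus. RNA polymerase I copies the ribosomal DNA into a long precursor RNA, guide particles called snoRNPs direct its chemical modification, and assembly factors cut and fold it into the small (40S) and large (60S) subunits. Fast-growing epithelium and tumour cells are known for high demand on this pathway, and the transcription factor MYC is a known activator of many of its genes.

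The start regions of the genes were available from RefSeq (GRCm38.p6) for 40 of the 46. Annotated starts here are those of RefSeq. By the deposited table Polr1c, Nop58, Nhp2 and Nop16 start inside the stretch printed below. The 100 bases before the annotated start are shown, 5′ to 3′, for the gene with the smallest p, among those with a region, in each of 7 role groups, and for Nop2 and Rrn3, chosen because their printed stretch holds an E-box. Capitals mark the E-box CACGTG, which MYC-family factors bind, and CCGGAAGT or its reverse complement, a sequence bound by ETS-family factors.
Polr1c, chr17:46248046-46248145, minus strand: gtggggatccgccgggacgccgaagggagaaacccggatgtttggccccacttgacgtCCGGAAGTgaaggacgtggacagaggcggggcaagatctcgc
Nop58, chr1:59684906-59685005, plus strand: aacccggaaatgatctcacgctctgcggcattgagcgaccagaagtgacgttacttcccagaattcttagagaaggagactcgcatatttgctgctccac
Nhp2, chr11:51619673-51619772, plus strand: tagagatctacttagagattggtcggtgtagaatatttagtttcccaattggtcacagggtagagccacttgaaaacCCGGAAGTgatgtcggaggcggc
Emg1, chr6:124712179-124712278, minus strand: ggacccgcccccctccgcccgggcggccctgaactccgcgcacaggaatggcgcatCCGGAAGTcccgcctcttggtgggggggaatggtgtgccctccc
Ltv1, chr10:13193138-13193237, minus strand: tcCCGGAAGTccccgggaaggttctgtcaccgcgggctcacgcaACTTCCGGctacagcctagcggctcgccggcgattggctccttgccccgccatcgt
Nop16, chr13:54590075-54590174, minus strand: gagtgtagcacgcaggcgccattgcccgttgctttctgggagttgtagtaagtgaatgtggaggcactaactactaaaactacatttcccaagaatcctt
Gnl3, chr14:31019132-31019231, minus strand: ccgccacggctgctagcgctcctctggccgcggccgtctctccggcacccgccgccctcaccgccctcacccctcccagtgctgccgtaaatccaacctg
Nop2, chr6:125131783-125131882, plus strand: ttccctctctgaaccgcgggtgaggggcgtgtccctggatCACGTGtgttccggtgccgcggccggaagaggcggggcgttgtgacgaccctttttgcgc
Rrn3, chr16:13780599-13780698, plus strand: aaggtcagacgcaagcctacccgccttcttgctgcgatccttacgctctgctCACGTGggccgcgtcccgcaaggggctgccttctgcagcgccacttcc

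The libraries held 18292722 to 23437024 counts in WT and 27667054 to 29203634 in KO. WT libraries differed more from each other than KO libraries did, by a mean chi-square over genes of 74.8 to 146 for WT pairs against 13.8 to 22.6 for KO pairs. By the same measure WT replicate 3 was nearer to KO replicates 1 to 3 (70.7, 64.6 and 51.3) than to WT replicates 1 and 2 (109 and 74.8). The libraries thus did not group by genotype alone. Ezh2, the gene deleted in the KO line, stood at 19.3, 22.6 and 14.7 CPM (counts per 1000000, after scaling) in WT replicates 1 to 3 and at 7.13, 7.28 and 5.84 CPM in KO replicates 1 to 3. The groups did not overlap, with a log2 fold change of −1.48 ± 0.20 (SE) and an adjusted p of 0.0755 in edgeR or 1.46e-07 in DESeq2 (0.407 at most over the alternatives). Luminal markers summed to 4443 to 5001 CPM in WT and 4239 to 4411 CPM in KO, and basal markers to 782 to 850 and 860 to 936 CPM, so both lineages of mammary epithelium were detected. No marker in either list was at 0 in all libraries.

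Of the 46 ribosome biogenesis genes, 39 had negative fold changes in KO organoids (84.8%; background 55.5% of genes tested) and 7 positive ones (background 44.5%). Among the 39, Polr1b and Ubtf rounded to 0.00. The differences ran from a log2 fold change of −0.64 ± 0.12 (SE, n = 3 per group) for Nhp2 to 0.11 ± 0.16 for Polr1a and 0.11 ± 0.12 for Bop1. The median was −0.26, with quartiles of −0.44 and −0.08, beside a median of −0.05 over the 14196 genes tested. All 46 passed the filter on low counts. In 21 genes every KO library lay below every WT library (45.7%), where the background was 14.6% of genes tested, and in 0 every KO library lay above (background 14.2%).

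The edgeR quasi-likelihood test called 0 of the 46 at an adjusted p of 0.05, and 0% of all genes in either direction. At an unadjusted p under 0.05 it held 19 lower (41.3%; background 10.9%) and 0 higher (background 8.93%). DESeq2 called 5 lower, Nhp2, Fbl, Polr1c, Nop58 and Gnl3 (10.9%; background 3.53%), and 0 higher (background 4.13%). Adjusted p-values in the authors' deposited table were under 0.05 for Nhp2 (0.00416), Fbl (0.0111) and Polr1c (0.0186), which is 3 lower (background 2.86%) and 0 higher (background 3.31%). With each library's trend on gene length removed, DESeq2 called 1 lower, Nop58 (background 1.6%), and 0 higher (background 1.82%). At an unadjusted p under 0.05 in edgeR there were then 7 lower (15.2%; background 6.62%) and 0 higher (background 7.52%). The groups did not overlap in 13 lower genes (28.3%; background 9.45%) and 1 higher gene (background 12.8%). Without KO replicate 1, 2 or 3 the 19 genes at an unadjusted p under 0.05 in edgeR became 11, 9 and 11. Without KO replicate 2 or KO replicate 3 DESeq2 called 0 of the 46, without KO replicate 1 it called 2, and without WT replicate 2 it called 8. The share of all genes was not taken for these leave-out counts. In these leave-out counts a change in the 46 can therefore not be told from a change across all genes.

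**Figure D1:**
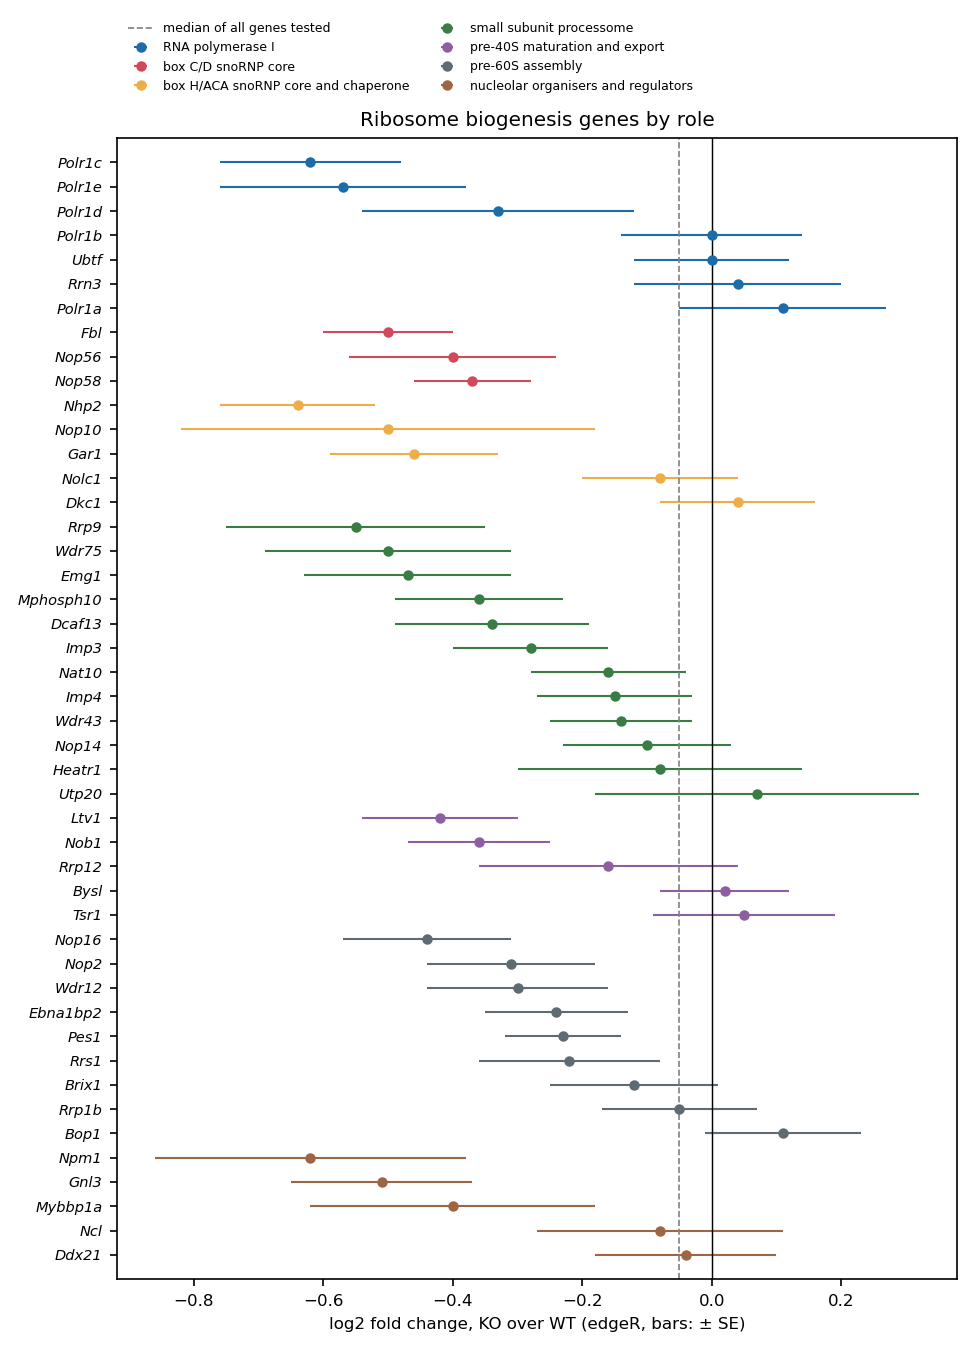
Log2 fold change, KO over WT, of the 46 genes (x axis; points, edgeR estimate; bars, ± SE; 3 libraries per group), grouped and coloured by role. Most points lie left of the dashed median of all genes (−0.05), and none is further right than 0.11.

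The WT libraries did not lie at one level. Relative to the KO mean, the median of the 46 genes on the log2 scale stood at 0.33, 0.23 and 0.11 in the first, second and last WT replicates, against −0.03 to 0.02 in the KO libraries. WT replicate 1 was the highest library for 26 genes and WT replicate 2 for 14. The highest WT library exceeded the lowest by a median of 1.30 times, and the highest KO library exceeded the lowest by 1.12 times. For 41 of the 46 genes this ratio was larger in WT. Without WT replicate 1 the median fold change was −0.18, and without WT replicate 2 it was −0.22. With each library left out in turn, Polr1a, Polr1b, Rrn3, Ubtf, Dkc1, Utp20, Heatr1, Nop14, Rrp12, Tsr1, Rrp1b, Ncl and Ddx21 took both signs.

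Other lists moved across the same libraries. Proliferation markers summed to 125, 515 and 244 CPM in WT replicates 1 to 3 and to 259 to 361 CPM in KO, with 0 of 15 at an unadjusted p under 0.05. WT replicate 1, the library highest in most of the ribosome biogenesis genes, was the lowest in these markers. Immune markers summed to 505, 2376 and 826 CPM in WT and 517 to 664 CPM in KO. Of 14 tested, 7 were lower at an unadjusted p under 0.05 (10.9% of all genes) and 2 were lower without overlap (14.6% of all genes). Their median log2 fold change was −1.56, or −0.44 without WT replicate 2. Fibroblast markers summed to 3578, 11493 and 17135 CPM in WT and 11413 to 13345 CPM in KO, with 0 of 13 at that threshold. No immune or fibroblast marker was at 0 in all libraries. The part of these cell types in the fold changes was not tested, and in whole organoids fewer cells of a type and less RNA per cell cannot be told apart.

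**Figure D2:**
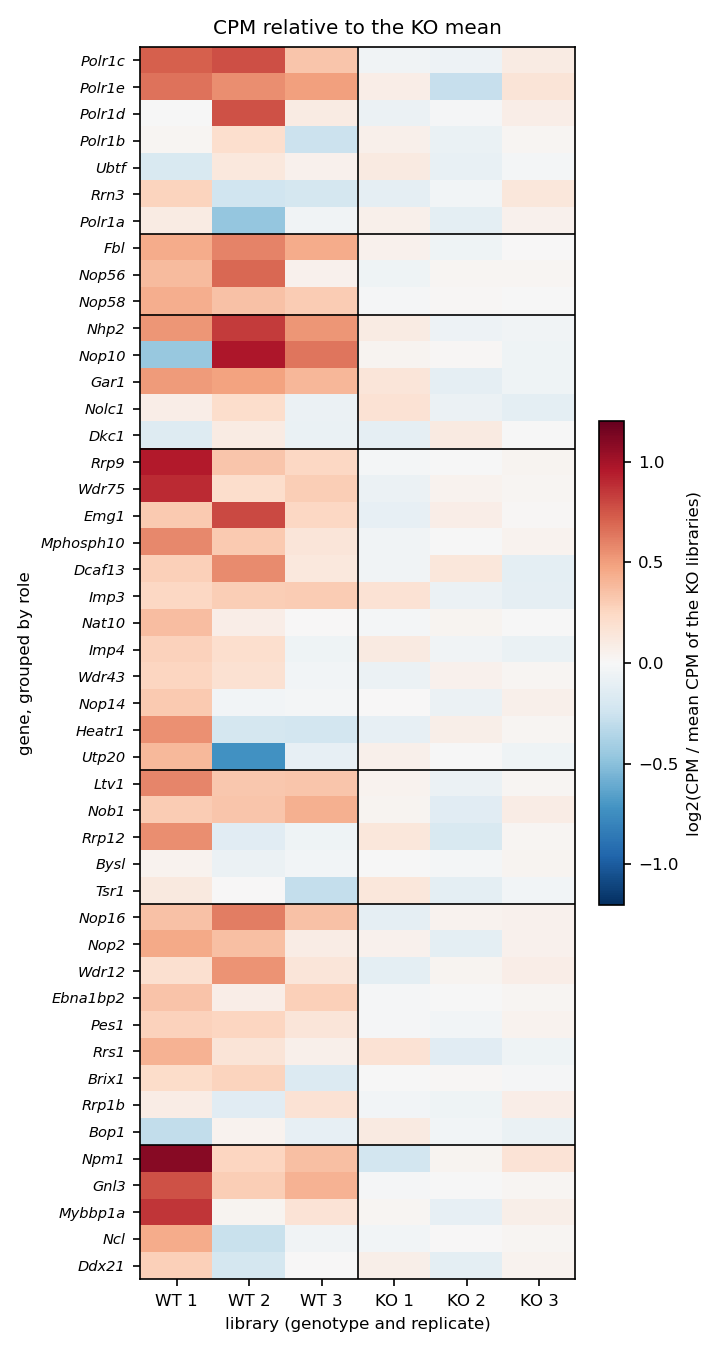
Log2 ratio of the CPM in each library to the mean CPM of the 3 KO libraries (colour; red, above; blue, below), with genes in rows grouped by role and libraries in columns. WT replicate 1 is reddest for Npm1, Rrp9 and Wdr75, and WT replicate 2 for Nop10, Nhp2 and Emg1.

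Among RNA polymerase I genes, Polr1c and Polr1e were lower in every KO library, which is 2 of 7 (14.6% of all genes). The largest subunits and the initiation factors stayed within the WT range. Polr1c encodes a subunit shared with RNA polymerase III. It measured 59.0, 61.4 and 45.1 CPM in WT replicates 1 to 3 against 34.9, 34.4 and 38.4 CPM in KO replicates 1 to 3. The highest KO library was below the lowest WT library. Its log2 fold change was −0.62 ± 0.14 (SE), with an adjusted p of 0.101 in edgeR and 0.00934 in DESeq2. Removing the length trend gave −0.38, with an adjusted p of 0.338 in DESeq2. Polr1e, a subunit found in RNA polymerase I alone, measured 10.0, 9.36 and 8.95 CPM in WT against 6.75, 5.27 and 7.09 CPM in KO. The groups did not overlap, at −0.57 ± 0.19 and an edgeR adjusted p of 0.174. The gene overlaps Fbxo10 on the other strand, which averaged 708 counts against 188 for Polr1e, so its reads are uncertain.

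Polr1d, the partner of Polr1c in both polymerases, measured 53.2, 90.8 and 57.2 CPM in WT against 50.9, 53.1 and 56.5 CPM in KO. WT replicate 2 stood apart, and its fold change of −0.33 ± 0.21 (SE) was −0.04 without that library and −0.02 with the length trend removed. Polr1a and Polr1b, the subunits that form the catalytic centre, were at 0.11 (95% interval −0.25 to 0.48) and 0.00 (−0.33 to 0.33). Rrn3, which brings the polymerase to the promoter, was at 0.04 (−0.33 to 0.42), and Ubtf, which binds ribosomal DNA, at 0.00 (−0.28 to 0.27). The ratio of Polr1c to Polr1a counts within a library, which does not depend on library size, was 0.945, 1.45 and 0.799 in WT and 0.575, 0.642 and 0.638 in KO. These did not overlap, and a two-sided exact permutation test over 20 arrangements reached its minimum, p = 0.1. The pair was picked with its values in view. The genes differ in length (1314 and 6105 bases), and with the length trend removed their log2 fold changes lay closer, at −0.38 and −0.05.

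All 3 core genes of the box C/D snoRNPs, which guide methylation of ribosomal RNA, were lower in every KO library. Over all genes tested 14.6% were. Fbl, the methyltransferase fibrillarin, measured 64.1, 70.8 and 63.9 CPM in WT replicates 1 to 3 against 48.6, 45.3 and 47.1 CPM in KO. The lowest WT library was well above the highest KO library. Its log2 fold change was −0.50 ± 0.10 (SE), with an adjusted p of 0.0867 in edgeR and 0.00186 in DESeq2. Its value was −0.22 with the length trend removed (adjusted p 0.540 in DESeq2). Nop58, a scaffold protein of the particle, measured 64.2, 60.3 and 58.5 CPM in WT against 47.0, 47.9 and 47.0 CPM in KO. Both groups were tight and did not overlap, at −0.37 ± 0.09 with an adjusted p of 0.118 in edgeR and 0.0281 in DESeq2. With the length trend removed Nop58 was at −0.67, with an adjusted p of 0.00175 in DESeq2. Its deposited length, 9507 bases, is above its median annotated transcript of 5610 bases, and the removed trend depends on that length.

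Nop56, the second scaffold protein, measured 72.2, 89.2 and 57.3 CPM in WT against 53.6, 56.2 and 56.5 CPM in KO. WT replicate 3 was only just above the KO libraries, and the fold change was −0.40 ± 0.16 (SE), with an edgeR adjusted p of 0.240, or −0.22 without WT replicate 2. Nop56 overlaps Idh3b on the other strand (1966 counts on average against 1546). In mm10, Fbl (ENSMUSG00000046865) lies at chr7:28169748-28179269 and Nop58 (ENSMUSG00000026020) at chr1:59684971-59719044, both on the plus strand.

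The box H/ACA snoRNPs, which guide pseudouridylation, were uneven. Of 5 genes in this group, 2 were lower without overlap (14.6% of all genes). Nhp2, a core RNA-binding protein, measured 73.2, 90.6 and 73.2 CPM in WT replicates 1 to 3 against 54.2, 48.6 and 49.3 CPM in KO. No KO library reached the lowest WT library, and the log2 fold change of −0.64 ± 0.12 (SE) was the lowest of the 46. In edgeR its adjusted p was 0.0867 and in DESeq2 0.00138. It was −0.33, no longer the lowest, with the length trend removed (adjusted p 0.206 in DESeq2). In edgeR without WT replicate 2, Nhp2 was the only 1 of the 46 to be called, with an adjusted p of 0.0491 and a background of 0.798% lower and 0.688% higher, and its adjusted p reached 0.407 when other libraries were left out. Gar1, another core protein, measured 20.3, 19.8 and 18.7 CPM in WT against 15.7, 13.2 and 13.8 CPM in KO, without overlap, at −0.46 ± 0.13 and an edgeR adjusted p of 0.135, or −0.22 with the length trend removed.

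Nop10, the smallest core protein, measured 14.4, 38.9 and 30.9 CPM in WT against 20.3, 20.03 and 19.2 CPM in KO. WT replicate 1 lay below all KO libraries and the other 2 above, so the groups overlapped, and the fold change was −0.50 ± 0.32 (SE), −0.80 when WT replicate 1 was left out, and −0.18 when WT replicate 2 was. It was −0.15 with the length trend removed. Dkc1, the pseudouridine synthase itself, was at 0.04 (95% interval −0.23 to 0.32), with 25.8, 30.5 and 27.0 CPM in WT against 26.6, 30.8 and 28.4 CPM in KO. Nolc1, which chaperones both kinds of snoRNP, was at −0.08 (−0.37 to 0.21). The ratio of Nhp2 to Dkc1 counts was 2.84, 2.97 and 2.71 in WT and 2.04, 1.58 and 1.74 in KO. It did not overlap (exact permutation p = 0.1, the smallest possible), and this pair was also chosen after its values were seen. With the length trend removed the log2 fold changes were −0.33 for Nhp2 (1042 bases) and 0.11 for Dkc1 (2804 bases). A further ratio computed, Fbl to Nop58, overlapped, at 1.09 ± 0.0887 in WT and 0.993 ± 0.0445 in KO (SD, n = 3, exact permutation p = 0.3). Nhp2 overlaps Rmnd5b and Dkc1 overlaps Mpp1 on the other strand, so both are uncertain.

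**Figure D3:**
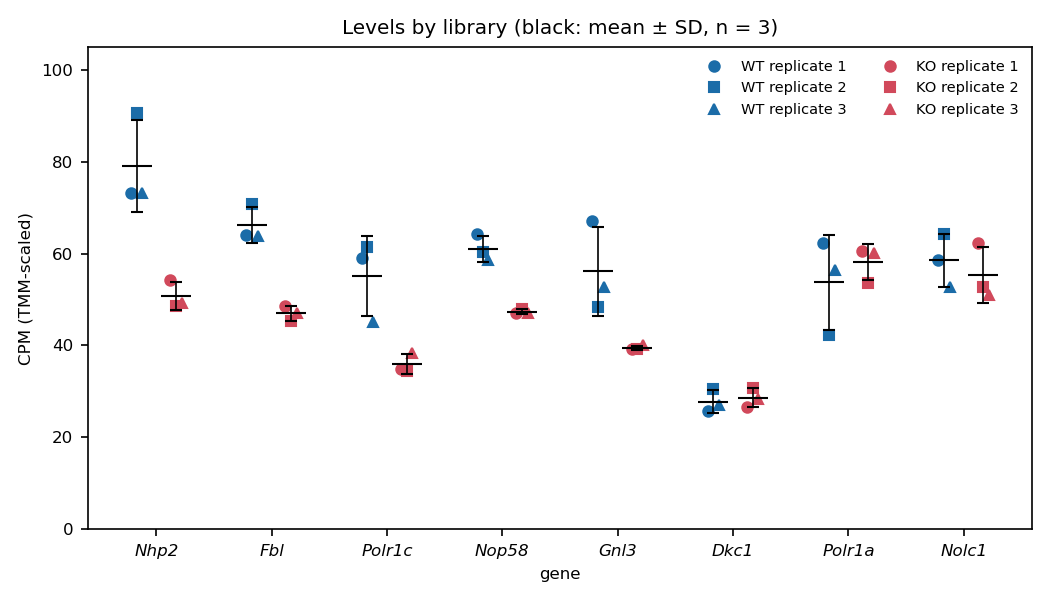
CPM (y axis, from 0) in each library for the 5 genes called by DESeq2 (Nhp2, Fbl, Polr1c, Nop58, Gnl3) and for Dkc1, Polr1a and Nolc1. Symbols are replicates and black bars are mean ± SD (n = 3). The 5 called genes separate WT (blue) from KO (red), and the other 3 overlap. Gnl3 had 39.1 to 39.99 CPM in KO against 48.4 to 67.1 CPM in WT. The 5 were picked by that call on these same libraries, so their separation adds no support.

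The small subunit processome, which folds and cuts the first part of the precursor around the U3 snoRNP, held 12 of the genes. Of these, 11 had negative fold changes (55.5% of all genes), and 5 were lower without overlap (14.6% of all genes). In edgeR 5 were lower at an unadjusted p under 0.05 (10.9% of all genes). After adjustment 0 were called by edgeR or DESeq2 (0% and 3.53% of all genes lower). Emg1, a methyltransferase of the small subunit RNA, measured 40.6, 56.4 and 38.9 CPM in WT replicates 1 to 3 against 30.6, 34.4 and 32.9 CPM in KO. The lowest WT library stood above the highest KO library, at −0.47 ± 0.16 (SE) with an edgeR adjusted p of 0.183. It was −0.28 without WT replicate 2 and −0.16 with the length trend removed. Rrp9, a protein specific to the U3 snoRNP, measured 34.1, 22.1 and 20.9 CPM in WT against 17.3, 17.5 and 18.0 CPM in KO. Its fold change of −0.55 ± 0.20 (edgeR adjusted p 0.203) was −0.27 without WT replicate 1, the library that stood highest.

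Imp3, which joins U3 to the precursor, measured 28.0, 29.0 and 29.1 CPM in WT against 26.5, 22.4 and 21.9 CPM in KO. The groups were separate by a small margin, at −0.28 ± 0.12 (SE) with an edgeR adjusted p of 0.240, and the value was 0.03 with the length trend removed. Its partner Mphosph10 and the early factor Wdr75 were also lower without overlap, at −0.36 ± 0.13 and −0.50 ± 0.19, or −0.22 and −0.24 without WT replicate 1. The other partner, Imp4, was at −0.15 ± 0.12, and Dcaf13 at −0.34 ± 0.15, both with overlap. They were at −0.31 and −0.12 with the length trend removed, and without WT replicate 1 Imp4 was at −0.06. The large scaffold genes Heatr1 and Utp20 were at −0.08 ± 0.22 and 0.07 ± 0.25, moving to 0.23 and 0.39 when WT replicate 1 was left out, and to −0.21 and −0.17 when WT replicate 2 was. Nat10, an RNA acetyltransferase, Wdr43 and Nop14 lay between −0.16 and −0.10. Emg1 overlaps Lpcat3 and Rrp9 overlaps Parp3 on the other strand, with more counts in the neighbour.

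In the last steps of the small subunit, 2 of 5 genes were lower without overlap (14.6% of all genes). The same number were lower at an unadjusted p under 0.05 in edgeR (10.9% of all genes). After adjustment 0 were called by edgeR or DESeq2 (0% and 3.53% of all genes lower). Ltv1, needed for export of the 40S precursor in yeast, measured 31.1, 25.9 and 26.1 CPM in WT replicates 1 to 3 against 21.4, 19.8 and 21.01 CPM in KO. The groups were apart, at −0.42 ± 0.12 (SE) and an edgeR adjusted p of 0.143. Nob1, the nuclease that makes the final cut, measured 28.6, 29.2 and 31.0 CPM in WT against 23.7, 21.01 and 24.6 CPM in KO, at −0.36 ± 0.11 with an edgeR adjusted p of 0.160. Both groups of Nob1 were narrow and did not meet. Ltv1 was at −0.25 and Nob1 at −0.22 with the length trend removed. Bysl, Tsr1 and Rrp12 overlapped, at 0.02 ± 0.10, 0.05 ± 0.14 and −0.16 ± 0.20, and Rrp12 was at 0.11 without WT replicate 1.

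Of 9 large subunit genes, 8 had negative fold changes (55.5% of all genes) and 5 were lower without overlap (14.6% of all genes). At an unadjusted p under 0.05 in edgeR 3 were lower (10.9% of all genes), and 0 were called by edgeR or DESeq2 (0% and 3.53% of all genes lower). Nop16, a nucleolar protein of the 60S precursor, measured 22.9, 27.4 and 22.9 CPM in WT replicates 1 to 3 against 16.7, 18.5 and 18.6 CPM in KO. All WT libraries were above all KO libraries, at −0.44 ± 0.13 (SE) with an edgeR adjusted p of 0.141, or −0.26 with the length trend removed. The PeBoW complex, which processes the large subunit RNA, was represented by Pes1, Bop1 and Wdr12, and no difference between them was tested. Pes1 measured 74.5, 73.3 and 67.8 CPM in WT against 60.9, 60.1 and 63.2 CPM in KO, at −0.23 ± 0.09 (edgeR adjusted p 0.237), without overlap. Bop1 measured 64.4, 81.5 and 73.7 CPM in WT against 85.0, 77.1 and 74.9 CPM in KO, at 0.11 (95% interval −0.17 to 0.39), with overlap, and its reads are uncertain beside Mroh1 on the other strand (5678 counts on average against 1875).

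Wdr12, the remaining PeBoW gene, was at −0.30 ± 0.14 (SE) without overlap, or −0.17 without WT replicate 2 and −0.64 with the length trend removed. Nop2, an RNA methyltransferase, and Ebna1bp2 were also lower in every KO library, at −0.31 ± 0.13 and −0.24 ± 0.11. Rrs1 measured 59.3, 49.4 and 46.4 CPM in WT against 50.04, 40.5 and 43.0 CPM in KO, with overlap, at −0.22 ± 0.14, or −0.09 without WT replicate 1. It is known in yeast for bringing the 5S particle into the large subunit. Brix1 and Rrp1b were at −0.12 ± 0.13 and −0.05 ± 0.12.

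The abundant nucleolar proteins had their highest level in WT replicate 1, in all 5 genes. Of the 5, 2 were lower without overlap (14.6% of all genes). Npm1, a nucleolar chaperone, measured 751, 424 and 453 CPM in WT replicates 1 to 3 against 303, 361 and 396 CPM in KO. The groups did not overlap, at −0.62 ± 0.24 (SE) and an edgeR adjusted p of 0.222, or −0.30 without WT replicate 1. Npm1 has pseudogene copies, so its count is uncertain. Ncl, nucleolin, measured 807, 493 and 577 CPM in WT against 581, 597 and 603 CPM in KO. KO lay inside the WT range, at −0.08 ± 0.19, or 0.17 without WT replicate 1 and −0.33 with the length trend removed.

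Gnl3, the GTPase nucleostemin, measured 67.1, 48.4 and 52.8 CPM in WT against 39.1, 39.2 and 39.99 CPM in KO. The groups were well apart, at −0.51 ± 0.14 (SE), with an adjusted p of 0.131 in edgeR and 0.0474 in DESeq2. Removing the length trend gave −0.36, with an adjusted p of 0.443 in DESeq2. Mybbp1a, a repressor of ribosomal RNA synthesis, was at −0.40 ± 0.22 with overlap, or −0.08 without WT replicate 1. The RNA helicase gene Ddx21 was at −0.04 ± 0.14. Gnl3 overlaps Glt8d1 and Mybbp1a overlaps Spns2 on the other strand, as Wdr12, Tsr1 and Bysl overlap neighbours, so their reads are uncertain too.

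Levels between genes were compared per length, as FPKM in the deposited table. Npm1 was highest, with 331 ± 106 FPKM in WT and 216 ± 26.8 FPKM in KO (SD, n = 3). Ncl (76.1 ± 18.6 in WT, 72.3 ± 1.08 in KO) and Nhp2 (76.0 ± 12.2 and 48.6 ± 3.18) came next and did not differ beyond their spread in WT. In KO every Ncl value was above every Nhp2 value. Polr1d (56.5 ± 19.3 and 44.6 ± 1.86) and Fbl (57.3 ± 5.30 and 40.5 ± 1.42) followed. In WT they did not differ beyond their spread, and in KO every Polr1d value was above every Fbl value. Wdr12 was lowest at 2.30 ± 0.433 FPKM in WT and 1.85 ± 0.113 in KO, but the deposited gene length of Wdr12, 10012 bases, is larger than its median annotated transcript of 3251 bases, and the level per length depends on which is used.

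Genes tested were split by deposited length into 5 groups of nearly equal size. Fold changes were higher in longer genes over all genes, from a median of −0.31 in the shortest group (69 to 1743 bases) to 0.20 in the longest (4937 to 106824 bases). The 11 biogenesis genes in the shortest group had a median of −0.50, with 8 of 11 lower without overlap against 28.3% of all genes there. The 8 genes of 1744 to 2652 bases had a median of −0.36 beside −0.14, with 6 of 8 lower without overlap against 20.6%. In the 9 genes of 2653 to 3592 bases it was −0.14 beside −0.04 (4 of 9 against 12.0%), and in the 11 of 3593 to 4936 bases −0.05 beside 0.04 (1 of 11 against 8.39%). The 7 longest had −0.08 beside 0.20 (2 of 7 against 3.52%). In each length group the biogenesis median was thus the lower one.

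Across the 46 genes Pearson's r between log2 gene length and log2 fold change was 0.60 (Spearman 0.61), against 0.35 (0.44) across all 14196 genes. Genes of one library share its depth and fragment sizes and are not independent. After removal of each library's length trend r was −0.21, the median was −0.20 beside −0.01 for all genes, 41 of 46 were negative (89.1%; background 51.2%) and 5 positive (background 48.8%). The genes then under an unadjusted p of 0.05 were Nop58, Wdr12, Nhp2, Polr1e, Nop56, Wdr75 and Polr1c. A trend on transcript length and GC content in place of the deposited length also gave 7 genes under that threshold: Nop58, Nhp2 and Wdr75 again, with Fbl, Imp4, Ltv1 and Mybbp1a in place of the other 4.

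**Figure D4:**
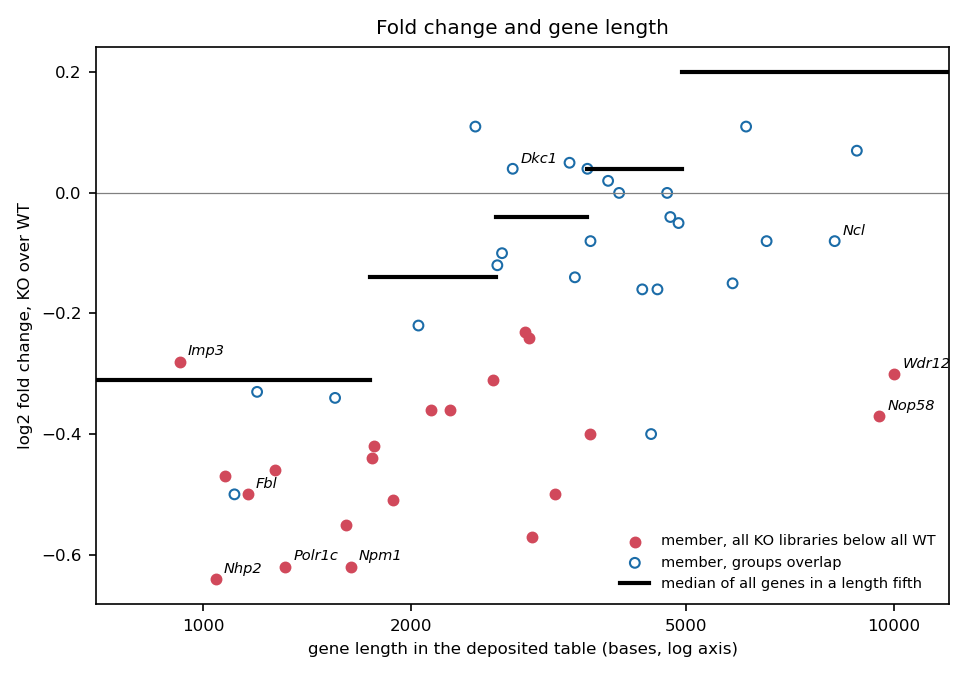
Log2 fold change, KO over WT (y axis), against gene length in bases (x axis, log scale) for the 46 genes; filled points are genes with every KO library below every WT library. Black bars are the medians of all genes tested in each of 5 length groups, from −0.31 to 0.20, drawn as far as the axis reaches. Points of short genes lie lowest, and Nop58 and Wdr12 lie low at the long end.

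The rest of the pathway was covered by 121 further ribosome assembly genes, all tested. Of these, 104 had negative fold changes (55.5% of all genes), with a median of −0.22. Without overlap, 51 were lower and 5 higher (14.6% and 14.2% of all genes). At an unadjusted p under 0.05 in edgeR 34 were lower and 0 higher (10.9% and 8.93% of all genes). After adjustment edgeR called 0 in either direction, and DESeq2 called 8 lower and 0 higher (3.53% and 4.13% of all genes). With the length trend removed the median was −0.13, and 14 were lower and 1 higher at an unadjusted p under 0.05 (6.62% and 7.52% of all genes). Medians by step were −0.26 for polymerase I cofactors (8 genes), −0.36 for snoRNP assembly (9), −0.17 for small subunit assembly (37), −0.18 for large subunit assembly (54) and −0.26 for the RNA exosome (13).

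The 6 lower genes with the smallest p were Exosc8, Rcl1, Ppan, Sbds, Taf1d and Dimt1, all without overlap and all called by DESeq2. They were picked by p on these same libraries, so their separation and calls add no support. Exosc8, a subunit of the RNA exosome that trims precursor ends, measured 13.7, 14.5 and 14.2 CPM in WT replicates 1 to 3 against 8.48, 8.60 and 7.93 CPM in KO, at −0.76 ± 0.14 (SE; DESeq2 adjusted p 0.000382). Both groups were tight and far apart. Rcl1, of the small subunit processome, was at −0.56 ± 0.10, Ppan, of the large subunit, at −0.74 ± 0.15, and Sbds, which helps release Eif6 from the large subunit, at −0.44 ± 0.09, or −0.23 with the length trend removed. Taf1d, of the polymerase I selectivity factor, was at −0.78 ± 0.19 and Dimt1, a methyltransferase, at −0.76 ± 0.19. On the other side Eftud1, the GTPase that acts with Sbds, was at 0.25 ± 0.11 and higher in every KO library, with an edgeR adjusted p of 0.282. Utp6 (0.18 ± 0.10), Pdcd11 (0.23 ± 0.14), Mdn1 (0.33 ± 0.20), Gnl3l (0.16 ± 0.11) and Pelp1 (0.19 ± 0.14) completed the 6 positive genes with the smallest p, of which Utp6 and Mdn1 were also higher in every KO library. With the length trend removed Mdn1 (17970 bases) was at −0.01, and Pdcd11 and Gnl3l were both at 0.06.

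Myc, the known activator of this pathway, measured 59.7, 47.5 and 39.8 CPM in WT against 34.9, 27.5 and 27.2 CPM in KO. Every KO library was below every WT library, at −0.72 ± 0.18 (SE), with an adjusted p of 0.118 in edgeR and 0.0184 in DESeq2. Over the 10 genes of the MYC network, Myc included, the median was −0.03. At an unadjusted p under 0.05 in edgeR 1 was lower, Myc itself, and 2 were higher (10.9% and 8.93% of all genes). Cytosolic ribosomal protein genes, the products of which the pathway assembles, had a median of −0.81 over 84 tested, or −0.55 with the length trend removed, and summed to 46158 to 58718 CPM in WT and 26210 to 33447 CPM in KO. Their median deposited length was 929 bases, against 2942 bases for the ribosome biogenesis genes, whose sum was 3223 to 4173 CPM in WT and 2952 to 3075 CPM in KO.

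In the start regions, from 250 bases before to 50 after the annotated start, CACGTG (the same on both strands) was found in 9 of 40 ribosome biogenesis genes (22.5%), against 11.4% of 10270 genes tested with a region and 8.09% of all 27025. The 9 were Imp4, Nop2, Ltv1, Utp20, Pes1, Mybbp1a, Tsr1, Rrn3 and Wdr43. It stood in 3 of the 19 genes that were lower without overlap and in 6 of the 21 others. CCGGAAGT on either strand, searched after the printed sequences had been read, was found in 11 of 40 (27.5%), against 8.56% of genes tested and 4.31% of all. It stood in 7 of the 19 and 4 of the 21. The 7 include Polr1c, Nhp2, Emg1 and Ltv1, whose printed sequences had been read before the search. Those genes were printed for their small p, so the share and the split are tilted towards them and test nothing. These are matches of letters, and no binding was measured.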

How the data were processed

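Messenger RNA of 6 libraries was sequenced after poly(A) selection, random-hexamer priming and PCR, per the labels' protocols. No step that marks the strand is named, so reads of overlapping genes on opposite strands cannot be told apart: 16 of the 46 genes overlap such a neighbour, which in 12 has over 10% of their counts. The submitters' processing notes list CASAVA, STAR and mm10, with no version, counting tool or annotation. The authors deposited raw read counts per gene. The deposited FPKM values equalled count per kilobase of gene length and per 1000000 counts (largest relative difference 2.1e-07). The deposited signal columns are the authors' mean normalized count per group. The deposited log2 fold changes and p-values were made by the authors with software that no source names, and are credited to them where printed.

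Counts were tested across all genes with edgeR 4.0.16 under R 4.3.3 (scaling by TMM, minimum count 10 and total 15, robust quasi-likelihood F test, Benjamini-Hochberg adjustment, threshold 0.05), with no replicate block. DESeq2 1.42.0 and limma 3.58.1 served as alternatives. CPM uses TMM-scaled library sizes. Length trends were smooth curves per library (mgcv 1.9.3) on the deposited gene length, entered as offsets. The test code was checked on simulated counts drawn with one set dispersion, which does not carry the spread of these libraries and gives no power for them. Intervals are 95% and cover the spread of 3 libraries, and the protocol names no molecular identifiers for PCR copies.

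The genes and lists were chosen with earlier results of these data known. Full values are given for the 2 genes with the smallest p and the 2 with the highest FPKM of each role group (all of a group under 5), and for the further assembly genes the 6 with the smallest p per direction at a mean of at least 5 CPM. Exosc6 and Riok2 were not analysed here. Dkc1's values were added after seeing them. Start regions were matched by symbol.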

Additional observations from a re-analysis of the deposited data

How the results depend on the processing

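In edgeR 0 of the 46 genes were called higher under every alternative run, and 0 lower under all but one: over libraries left out the count ran from 0 to 1, with 1 (Nhp2) without WT replicate 2. The 19 genes lower at an unadjusted p under 0.05 ranged from 9 to 19 when each library was left out, and were 7 with the gene length trend removed, 6 with it removed together with the replicate block, and 7 with the transcript length and GC trend removed. Leaving out libraries moved the 5 DESeq2 calls between 0 and 8, and the length trend left 1. The share of all genes was not taken for these fits, except for the gene length trend alone and for edgeR without WT replicate 2. The count without overlap, 21, was 13 with the length trend removed. The median fold change ran from −0.28 to −0.18 over libraries left out. For the further assembly genes it ran from −0.25 to −0.15 over libraries left out, and was −0.13 with the length trend removed and −0.12 with the block added. Their count at an unadjusted p under 0.05, 34, ran from 16 to 40 over libraries left out, and was 14, 10 and 16 under the length trend, the length trend with the block, and transcript length with GC. Ezh2 passed 0.05 in DESeq2 (−1.47), with no filter (−1.46) and without WT replicate 2, running from −1.63 to −1.33 over libraries left out. Of 420 comparisons for 21 named genes, 3 changed sign: Imp3 was 0.03 with the length trend removed and 0.04 with the replicate block added, and Ncl, which ran from −0.22 to 0.17 over libraries left out, was positive without WT replicate 1. The 21 are the genes given in full, picked mostly by smallest p or highest FPKM, so this count does not describe all 46. Of the genes listed above as taking both signs with a library left out, only Ncl is among the 21. The length alternatives change each library's values by construction. The cause of the other shifts was not tested.

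Whether the replicate numbers pair the samples was not settled. Deviations of same-numbered libraries from their group means correlated at −0.07, 0.25 and 0.08. The value for WT replicate 2 with KO replicate 2 was the highest of all pairs, at 0.250. An unmatched pair, WT replicate 1 with KO replicate 3, was nearly equal at 0.246. Such deviations sum to 0 over the 3 libraries of a group, so these correlations are constrained and cannot exclude a pairing. With the replicate block edgeR called 0 of the 46, 14 were lower at an unadjusted p under 0.05 (share of all genes not taken), and the median was −0.26. WT replicate 1 correlated best with KO replicate 3. The transcript length and GC trend and the DESeq2 alternatives without a library or a length trend were added after seeing the data.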
